A study of Rattus norvegicus with 30 samples.

Results

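The Nedd4l locus was examined as the stretch of rat chromosome 18 (Rn6) from 60606239 to 60806654, which reaches 100 kb to each side of an intronic site of the gene at chr18:60706239-60706654. Peaks of DNA methylation (DNAm) called in 30 animals were merged where they overlapped by at least 1 bp, and the 44 merged regions of this window with a peak in at least 2 animals were described. They were 44 of 442206 such regions in the genome and of 432103 on the autosomes, which were all tested together. The window was chosen by a measured result, because the study lists the site among the differentially methylated regions (DMRs) shared by alcohol-exposed and pair-fed animals of these same litters. The heights of the site in both groups against controls are therefore given as a description, with no test. The same holds for another of the 44 regions, at chr18:60772173-60772851, which the study lists as a shared DMR without naming a gene.

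Nedd4l encodes NEDD4-2, an E3 ubiquitin ligase of the HECT class and a member of the NEDD4 family. It attaches ubiquitin to membrane proteins with PY motifs, among them the epithelial sodium channel, voltage-gated sodium channels and KCNQ potassium channels, and so lowers their number at the cell surface. In neurons it is known for limiting excitability, and the kinase SGK1, itself induced by glucocorticoids, phosphorylates it and loosens its hold on its targets. DNAm in mammals sits mostly on cytosines of CpG dinucleotides. Methylated DNA immunoprecipitation followed by sequencing (meDIP-seq) collects fragments with an antibody against methylated cytosine, so a taller peak stands for more captured fragments and not for a percentage of methylation.

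Prefrontal cortex (PFC) of Sprague-Dawley rats was collected on postnatal day 22, from 3 prenatal groups of 10 animals. Prenatal alcohol exposure (PAE) dams had free access to a liquid diet in which ethanol gave 36% of calories (6.37% v/v). Pair-fed (PF) dams received a liquid diet with maltose-dextrin in place of ethanol, in the amount that a PAE partner ate, and control (CON) dams ate pellets of the control diet freely. Diets ran over gestation days 1 to 21, and all dams had water. Each group came from 5 dams, with 1 offspring labelled female and 1 labelled male from each. The samples were pieces of whole tissue, in which fewer cells with methylated DNA and less methylation per cell cannot be told apart.

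Filtered fragments per library numbered 11548314 to 15472634 in CON, 12571392 to 16555049 in PF and 13254266 to 15537001 in PAE. For each region and animal, the tallest pileup (the number of fragments over one point) per 1000000 filtered fragments is given here as the normalized height. An animal with no called peak was given a common floor of 0.438, since the peak lists hold no coverage under the threshold of calling. Group means, their SD (n = 10) and log2 differences include animals at the floor. Coverage of an animal without a call can lie above or below it, so differences may be understated or overstated. Differences were fitted with limma over all 432103 regions, with group, labelled sex and sequencing chip in the model. They are given on the log2 scale with their standard error (SE). The treated unit was the dam, but this model has no term for it and counts littermates as independent animals.

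Some libraries went against their labels or stood apart. By the peaks on chromosomes X and Y, 7 libraries had a high X and low Y content and 23 a low X and high Y content, so that 18 of the 30 went against their labelled sex and 12 went with it (3 CON, 3 PF and 6 PAE). In addition, 6 libraries (CON replicates 1, 2, 4 and 9, PF replicate 4 and PAE replicate 2) had taller peaks throughout the genome, with a median normalized height of 1.56 to 1.69 over the regions called in all 30 animals, against 1.14 to 1.42 in the other 24. They were 4 of the 10 CON animals but 1 of 10 in each other group, and they held 19 to 28 of the 44 regions each, against 12 to 19 in the other 24. Values without these 6 libraries, a removal chosen after the data were seen, are given beside the main results.

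Length varied from 258 to 1588 bp over the 44 regions (median 581 bp, and 499 bp for all tested regions), which together covered 28430 bp or 14.2% of the window. Of these regions, 26 lay before the site and 17 after it in genome order, with a median gap of 3118 bp and a largest gap of 8716 bp. Stretches of 200 kb on the autosomes held a median of 34 such regions, and 72.4% of them held no more than the Nedd4l window. A region was called in a median of 8 animals, against 6 for all tested regions. Longer regions were called in more animals (Spearman's rho of 0.64 over the 44 regions, a description only).

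The number of animals with a called peak differed widely along the locus. Of the 44 regions, 3 (6.82%, against 2.76% of all tested regions) were called in all 30 animals. A further 18 were called in 10 to 29, 13 in 3 to 9, and 10 in exactly 2 (22.7%, against 18.5%). At the limit of the rule, the tallest peaks of the 10 regions called in 2 animals ranged from 0.459 to 1.93. Just outside it, the window held 18 regions called in 1 animal (11 in CON, 3 in PF and 4 in PAE), with heights of 0.502 to 2.49. The libraries of high overall height gave 10 of these 18. All called heights in the 44 regions lay at or below 2.51.

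**Figure D1:**
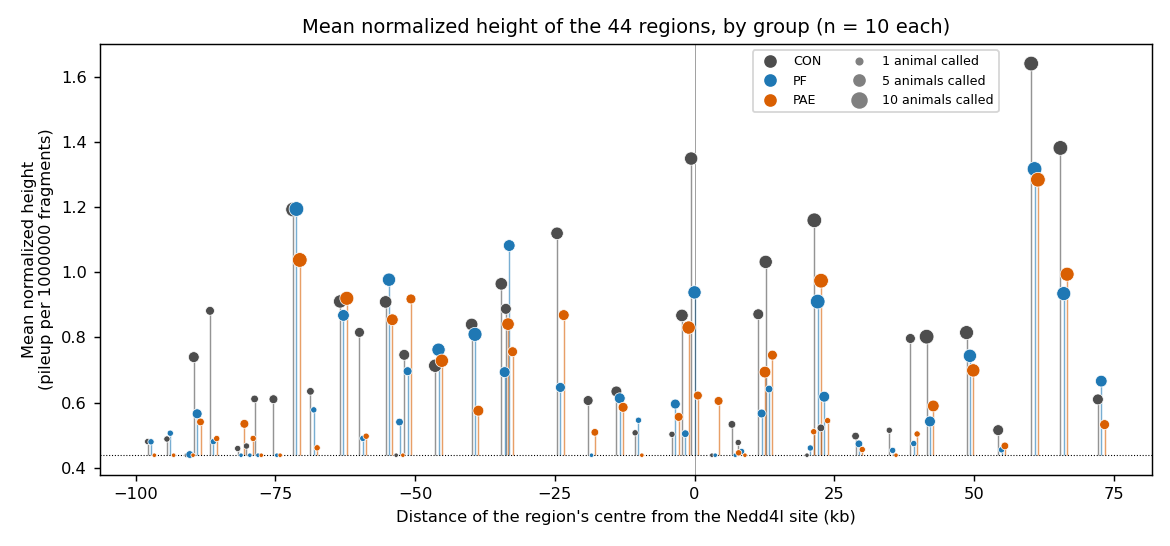
Mean normalized height (pileup per 1000000 filtered fragments) of the 44 regions against the distance of their centres from the Nedd4l site, for CON, PF and PAE (n = 10 each, shifted sideways for clarity), with point size showing the number of animals with a called peak and the dotted line the floor of 0.438. The tallest mean stood at 60.8 kb (1.64 in CON), and the site at 0 kb had means of 1.35 in CON, 0.938 in PF and 0.621 in PAE.

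The site itself is a 416 bp region that the study places in an intron of Nedd4l. A peak was called there in 8 of 10 CON, 8 of 10 PF and 3 of 10 PAE animals, 19 in all. The individual peaks were 247 to 383 bp long (median 304 bp), and their summits fell within 138 bp of each other, from 112 to 250 bp after the start of the site. They rested on 10 to 24 fragments at the summit and had −log10 q-values of 2.60 to 9.05, so the counting error of a single height was wide.

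In the 8 CON animals with a peak at the site, the normalized height ran from 1.13 to 2.06 with a median of 1.56. The 8 PF animals with a peak ran from 0.690 to 1.75 with a median of 1.01. The 3 PAE animals with a peak stood at 0.905, 1.02 and 1.22. The called heights of CON and PF overlapped between 1.13 and 1.75, whereas the PAE heights reached no higher than 1.22 and the other 7 PAE animals had no peak. With the floor included, the mean was 1.35 ± 0.560 in CON, 0.938 ± 0.394 in PF and 0.621 ± 0.304 in PAE. The fitted log2 difference was -0.99 (SE 0.306) for PAE versus CON and -0.42 (SE 0.317) for PF versus CON. Both contrasts share the CON animals, and both had a part in choosing the site.

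PAE versus PF was not itself part of that choice and was tested. Since both groups were chosen by their differences from CON, its p-value and interval are not those of an unselected region. The log2 difference at the site was -0.57, with a 95% interval of -1.20 to 0.06 (limma, unadjusted p = 0.0748, adjusted p = 0.964 by the Benjamini-Hochberg method over all regions). The interval holds 0 as well as a fall by more than 1 on the log2 scale, and the unadjusted p depended on the processing. It was below 0.05 in 3 of 13 other settings. With animals without a peak set to 0 and a pseudocount of 0.1 the difference was -1.65 (SE 0.703, unadjusted p = 0.0232). With the chip effect removed before the fit it was -0.57 (SE 0.262, unadjusted p = 0.0379). That fit does not count the chip terms taken out, so its SE and p-value are too small. With each animal's own floor the difference was -0.67 (SE 0.313, unadjusted p = 0.0387). Leaving out each animal in turn gave an unadjusted p of 0.0205 to 0.219, below 0.05 without CON replicate 5, CON replicate 6, PAE replicate 1 or PAE replicate 10. The adjusted p was at least 0.539 in all of these fits.

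Of the libraries of high overall height, the 4 CON libraries and the PF library had a peak at the site, and the PAE library had none. Without these 6 libraries, the peak was called in 4 of 6 CON, 7 of 9 PF and 3 of 9 PAE animals. Mean heights were then 1.01 ± 0.449, 0.848 ± 0.288 and 0.642 ± 0.315, in the same order. The log2 difference moved to -0.60 (SE 0.367) for PAE versus CON, -0.15 (SE 0.386) for PF versus CON and -0.44 (SE 0.347) for PAE versus PF. In the 12 libraries that go with their labelled sex, the 3 differences were -0.33 (SE 0.658), -0.15 (SE 0.930) and -0.19 (SE 0.778), each smaller than its SE.

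Litters, labelled sexes and sequencing chips showed the same site as follows. In CON and in PF, 3 litters had a peak in both littermates and 2 litters in 1 of them, whereas in PAE 3 litters had a peak in 1 littermate and 2 litters in neither. Among animals labelled female, 4 of 5 CON, 3 of 5 PF and 1 of 5 PAE had the peak, and among those labelled male, 4, 5 and 2. Within chips, the PAE minus CON difference of mean log2 height was -1.01, -1.11 and -1.62 on 3 chips and 0.49 on the chip where the only CON animal had no peak, and 1 chip held no PAE animal. The PF minus CON difference within chips was -1.04, -0.75 and -0.03, and 1.00 on the chip with that CON animal. A chip held 1 to 4 animals of a group.

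**Figure D2:**
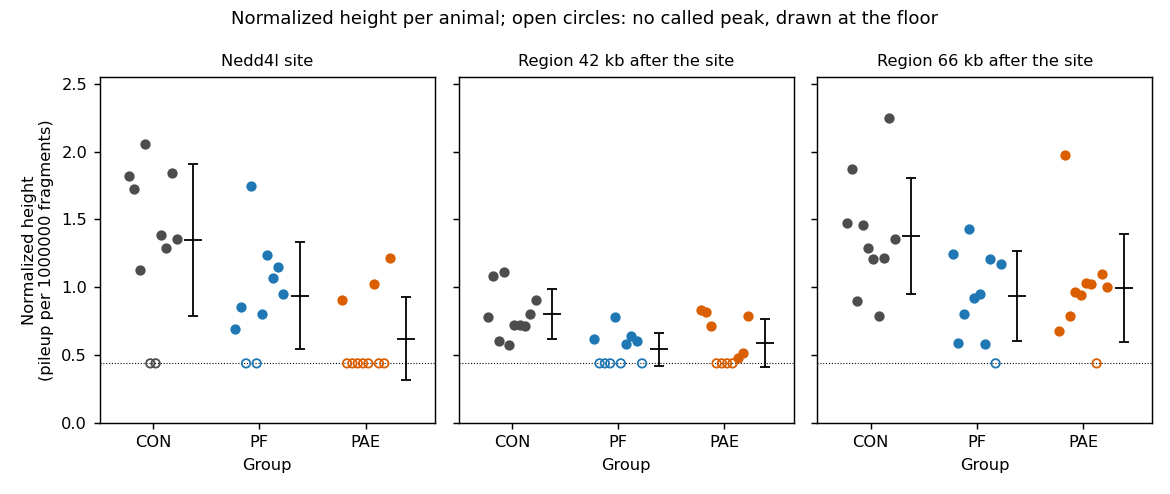
Normalized height (pileup per 1000000 filtered fragments) of each animal in CON, PF and PAE at the Nedd4l site, at the 1588 bp region 42.1 kb after it and at the 679 bp region 66.1 kb after it, with open circles for animals without a called peak at the floor of 0.438 and bars for mean ± SD (n = 10). At the site 8 CON, 8 PF and 3 PAE animals lie above the floor, and in the other 2 regions all 10 CON animals do.

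The 2 regions next to the site had other patterns of calls. The one at -1.65 kb (chr18:60704480-60705115, 636 bp; negative distances lie before the site) had a peak in 7 animals of CON, 2 of PF and 8 of PAE. Its called heights ran from 0.711 to 1.37 in CON and from 0.528 to 1.41 in PAE, and the PF animals stood at 0.759 and 0.778. Mean heights were 0.867 ± 0.360 in CON, 0.504 ± 0.139 in PF and 0.830 ± 0.337 in PAE, so here PF was the low group. The log2 difference was -0.66 (SE 0.269, limma unadjusted p = 0.0207, adjusted p = 0.766) for PF versus CON, -0.19 (SE 0.259) for PAE versus CON and 0.47 (SE 0.260, unadjusted p = 0.0797) for PAE versus PF. Without the libraries of high overall height, PF versus CON was -0.41 (SE 0.336, unadjusted p = 0.235).

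The one at 3.70 kb (chr18:60709968-60710333, 366 bp) was called in 3 PAE animals, at 0.812, 0.942 and 1.23, and in no CON or PF animal. It met the rule of at least 2 animals only through PAE, which set the sign of its differences in advance. As a description, its log2 difference was 0.35 (SE 0.161) for PAE versus PF and 0.30 (SE 0.161) for PAE versus CON. One of the 3 was the PAE library of high overall height. Without all 6 libraries of high overall height, the difference from PF was 0.31.

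Further from the site, the 1588 bp region at 42.1 kb (chr18:60747779-60749366) was the longest of the 44 and had the smallest p-value among them. It was called in all 10 CON animals, from 0.573 to 1.12 with a median of 0.752. A peak was present in 5 PF animals, from 0.583 to 0.778, and in 6 PAE animals, from 0.475 to 0.830. The called heights overlapped between groups, and the absence of a peak in 5 PF and 4 PAE animals set them apart from CON. Mean heights were 0.802 ± 0.182 in CON, 0.542 ± 0.121 in PF and 0.589 ± 0.175 in PAE.

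There, the log2 difference was -0.70 (SE 0.176, limma unadjusted p = 4.8e-04, adjusted p = 0.766) for PF versus CON and -0.50 (SE 0.169, unadjusted p = 0.00666, adjusted p = 0.715) for PAE versus CON. PAE and PF differed by 0.20 (95% interval -0.15 to 0.55, unadjusted p = 0.245). The differences from CON were negative on each chip that held both groups, from -0.55 to -0.44 for PAE and from -1.09 to -0.40 for PF. Some of these chips held 1 CON or 1 PF animal. The region was named for its p-value in the same animals, so the signs within chips are a description and no further support. Without the libraries of high overall height the differences from CON were -0.56 (limma unadjusted p = 0.0210) for PF and -0.45 (unadjusted p = 0.0454) for PAE. Means were then 0.707 ± 0.117 in CON (n = 6), 0.553 ± 0.122 in PF (n = 9) and 0.564 ± 0.165 in PAE (n = 9). Among the 34 regions still tested after that removal, this was the only one with an unadjusted p below 0.05 in both contrasts with CON. Both contrasts share the same 6 CON animals, and the region already had the smallest p in the full fit, so this is no separate support. Fisher's exact test of its calls in all animals gave p = 0.0867 for PAE versus CON and p = 0.0325 for PF versus CON. The region did not pass the FDR in any contrast.

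The region at 66.1 kb (chr18:60772173-60772851, 679 bp), the other one in the study's list, had a peak in 10 animals of CON, 9 of PF and 9 of PAE. Called heights ran from 0.791 to 2.25 in CON (median 1.32), from 0.583 to 1.43 in PF (median 0.952) and from 0.679 to 1.97 in PAE (median 1.00). The ranges overlapped, and the tallest animal of each group came from the libraries of high overall height. Mean heights were 1.38 ± 0.428, 0.934 ± 0.330 and 0.994 ± 0.398. As a description, the log2 difference was -0.50 (SE 0.211) for PAE versus CON and -0.63 (SE 0.219) for PF versus CON. For PAE versus PF it was 0.12 with a 95% interval of -0.31 to 0.56. Without the libraries of high overall height the differences from CON were -0.41 (SE 0.253) and -0.69 (SE 0.266).

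The 3 regions called in all 30 animals have a called height in each animal, with none set to the floor. The tallest, at 60.8 kb (chr18:60766885-60767685), ran from 1.10 to 2.37 in CON, from 0.604 to 2.07 in PF and from 0.808 to 2.38 in PAE. The region at 22.0 kb (chr18:60728041-60728929) ran from 0.717 to 2.51, from 0.658 to 1.21 and from 0.471 to 1.70. The one at -71.2 kb (chr18:60634707-60635738) ran from 0.776 to 1.94, from 0.801 to 1.75 and from 0.788 to 1.31. Groups overlapped in all 3 regions. No contrast reached an unadjusted p below 0.05 in them, and the log2 differences from CON lay between -0.35 and 0.08. At the tallest, means fell to 1.30 ± 0.183 in CON, 1.27 ± 0.503 in PF and 1.16 ± 0.241 in PAE once the libraries of high overall height were left out, from 1.64 ± 0.475, 1.32 ± 0.498 and 1.28 ± 0.448.

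**Figure D3:**
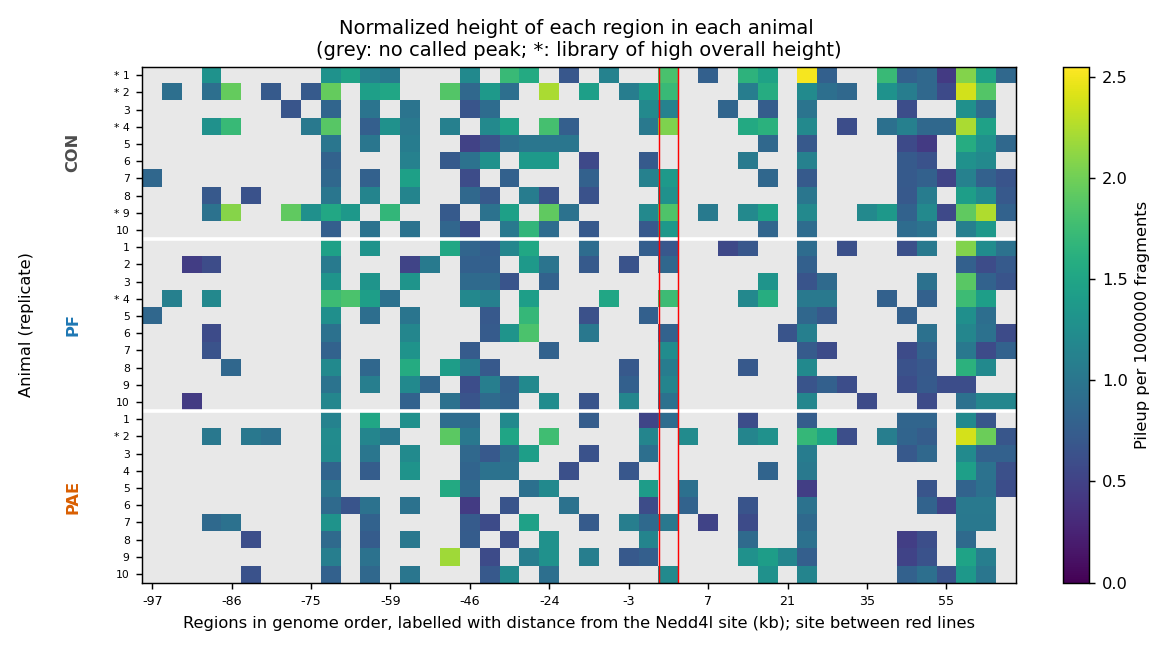
Normalized height (colour, pileup per 1000000 filtered fragments) of the 44 regions in genome order (columns, marked with their distance from the Nedd4l site in kb) in the 30 animals (rows, 10 per group), with grey for no called peak, red lines around the site and an asterisk for the 6 libraries of high overall height. The 3 columns filled in all 30 rows are the regions at -71.2, 22.0 and 60.8 kb, and the marked rows hold 19 to 28 filled cells against 12 to 19 in the others.

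Across the locus, no region passed an FDR of 0.05 in any contrast. The smallest adjusted p was 0.715 for PAE versus CON, 0.766 for PF versus CON and 0.964 for PAE versus PF. Over all tested regions, 1 passed for PAE versus CON (0.000231%), and 0% passed for PF versus CON and for PAE versus PF. At an unadjusted p below 0.05 the counts over all regions were 28802, 25476 and 18081.

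For PAE versus CON, 7 of the 44 regions had an unadjusted p below 0.05 and all 7 were lower in PAE, whereas 5.47% of all tested regions were called lower and 1.2% higher by the same rule. Without the site and the other region in the study's list, 5 of 42 remained. Besides these and the region at 42.1 kb, they were the regions at -74.7 kb (chr18:60631371-60632047, log2 difference -0.37), -59.3 kb (chr18:60646742-60647458, -0.55), -39.3 kb (chr18:60666639-60667706, -0.52) and 39.2 kb (chr18:60745465-60745885, -0.48). The one at -74.7 kb was called in CON alone, which set its sign in advance. Its place in the 7 and in the 5 is therefore no support. The count fell to 2 of 44 without CON replicate 9. Without all 6 libraries of high overall height, 34 of the 44 regions were still called in 2 animals and 2 of the 34 passed, both lower in PAE (the region at 42.1 kb and 1 that was not among the 7), when 4.88% of all regions tested then passed in either direction.

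For PF versus CON, 7 of 44 regions had an unadjusted p below 0.05 and all 7 were lower in PF, whereas 3.96% of all tested regions were called lower and 1.94% higher. They were the regions at -74.7 kb (-0.36), -59.3 kb (-0.50), -1.65 kb, 13.3 kb (chr18:60719374-60720195, -0.74), 39.2 kb (-0.52), 42.1 kb and 66.1 kb, and without the last, which is in the study's list, 6 remained. The site was not among them. The region at -74.7 kb was, but it was called in CON alone, which set its sign in advance. Its place in the 7 and in the 6 is therefore no support. The count fell to 3 without CON replicate 9 and to 4 without CON replicate 4, PF replicate 8 or PF replicate 10. Without the 6 libraries of high overall height, 3 of 34 passed, when 5.04% of all regions did. Those at 42.1 and 66.1 kb were lower in PF and 1 that was not among the 7 was higher. The one at 66.1 kb was chosen by this contrast and is no support, which leaves the one at 42.1 kb lower and the other higher.

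For PAE versus PF, 3 of 44 regions had an unadjusted p below 0.05. The regions at -52.8 kb (chr18:60653401-60653931, -0.26) and at -39.3 kb (-0.62) were lower in PAE, against 2.73% of all regions called lower, and the one at 3.70 kb was higher, against 1.46% called higher. The count fell to 1 without PAE replicate 5, PAE replicate 6, PF replicate 2 or PF replicate 9. Without the 6 libraries of high overall height, 4 of 34 passed, 3 lower and 1 higher in PAE, when 4.42% of all regions did. They were the regions at -52.8 and 3.70 kb and 2 that had not passed before. The regions at -52.8 and 3.70 kb were called only in the group where they were high. The rule for the 44 regions thus set their direction in advance, and their place in these counts is no support for a difference.

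Several of these regions rested on few animals. The region at -74.7 kb was called in 3 CON animals only, at 0.720 to 1.28. It met the rule for the 44 regions through CON alone, which set the sign of its differences from CON in advance. At -59.3 kb 4 CON animals had a peak, at 1.04 to 1.69, with 1 PF animal at 0.955 and 1 PAE animal at 1.02. At 39.2 kb the same counts held, with 0.944 to 1.73 in CON, 0.795 in PF and 1.09 in PAE. All calls in these 3 regions came from the 6 libraries of high overall height, so no difference is left without them. The same was true of 6 of the 44 regions in all, and the 6 libraries gave 143 of the 508 calls at the locus.

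At -39.3 kb, by contrast, 7 CON, 9 PF and 5 PAE animals had a peak, with 0.645 to 1.37 in CON, 0.708 to 1.11 in PF and 0.579 to 0.962 in PAE. Its mean was 0.840 ± 0.359, 0.809 ± 0.196 and 0.575 ± 0.177, so that PAE was the low group. Its PAE versus PF difference of -0.62 (SE 0.232, limma unadjusted p = 0.0124, adjusted p = 0.964) was -0.49 (SE 0.252, unadjusted p = 0.0654) without those libraries, no longer below 0.05. Its PAE versus CON difference of -0.52 (SE 0.232, unadjusted p = 0.0335) was then -0.33 (SE 0.266, unadjusted p = 0.224). At 13.3 kb, 8 CON, 2 PF and 4 PAE animals had a peak, and all 6 libraries of high overall height were among the 14. There the PF versus CON difference of -0.74 (SE 0.345, unadjusted p = 0.0430) was -0.37 (SE 0.361, unadjusted p = 0.316) without them. At -52.8 kb only 2 PF animals had one, at 0.846 and 1.05.

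**Figure D4:**
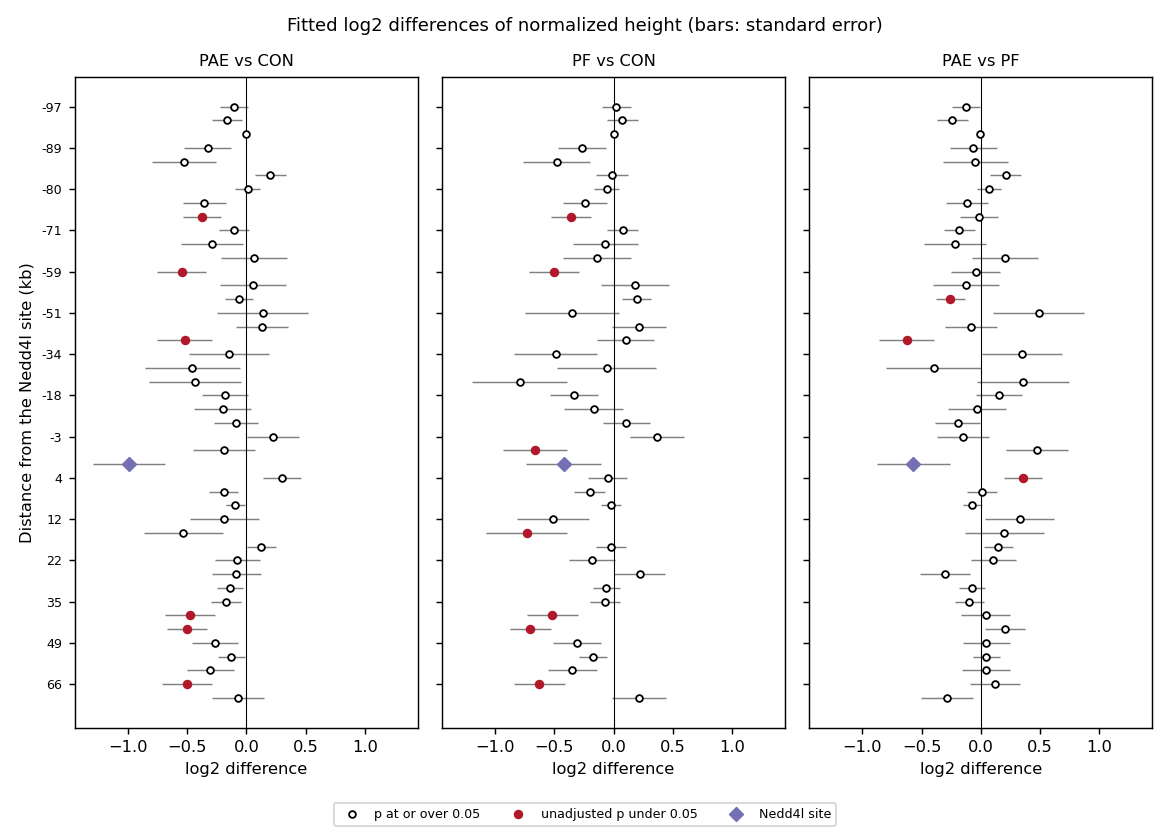
Fitted log2 differences of normalized height (horizontal axes, bars are 1 SE) for PAE versus CON, PF versus CON and PAE versus PF at the 44 regions, ordered by distance from the Nedd4l site (vertical axis, kb), with filled red points for an unadjusted limma p below 0.05 and a diamond for the site. The 7 red or diamond points below that threshold in PAE versus CON and the 7 red points in PF versus CON all lie left of 0, and none passed the FDR.

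The sign of the difference over all 44 regions, whatever its size, was lower in PAE than in CON at 35 regions (79.5%, against 61.7% of all tested regions) with a median of -0.17 (against -0.04). For PF versus CON it was lower at 32 regions (72.7%, against 56.6%) with a median of -0.16 (against -0.02). Since both contrasts use the same CON animals, one set of tall CON libraries enters both. Without the 6 libraries of high overall height, 21 of 34 regions were lower in PAE than in CON (61.8%, against 53.7% of all regions tested then). For PF, 19 of 34 were lower than CON (55.9%, against 49.4%), and the medians were -0.04 and -0.06. These counts and those of the full fit include the site and the region at 66.1 kb, which these contrasts chose. For PAE versus PF, 24 of 44 regions were lower (54.5%, against 55.1%) with a median of -0.02 (against -0.02). The regions at -90.3 and -52.8 kb counted as lower in PAE than in CON although neither group had a peak there. The same held at 3.70 kb for PF versus CON and at -78.1 and -74.7 kb for PAE versus PF. Such signs came from the other terms of the model. Without the chip term, 34 regions were lower and 8 higher in PAE than in CON.

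The background of all regions also depended on scaling. Of the regions with an unadjusted p below 0.05, 82.1% were lower in PAE than in CON, and 57.7% were after quantile normalization and 66.8% after median ratio scaling. For PAE versus PF the share was 65.2%, and 48.6% and 52.9% after the same scalings. At the locus all regions that passed against CON under either scaling were lower, 4 and 6 of 44 for PAE and 6 and 5 of 44 for PF. Over all 432103 tested regions, 12989 and 15700 passed and were lower in PAE, and 11789 and 13132 in PF. The locus counts were not cleared of the site and the region at 66.1 kb, which these contrasts chose. Nor were they cleared of the region at -74.7 kb, called in CON alone. They are thus no support for a fall at the locus that outlasts scaling.

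By side, 15 of the 17 regions after the site were lower than CON in PAE and 15 of 17 in PF, and 5 of 17 were lower in PAE than in PF. Before the site these counts were 19, 16 and 18 of 26. Over all tested regions 61.7% and 56.6% were lower than CON in PAE and PF, and 55.1% were lower in PAE than in PF. The regions after the site include the one at 66.1 kb, which the contrasts with CON chose. Without the 6 libraries of high overall height, 9 of 14 regions after the site were lower than CON in PAE and 8 of 14 in PF, and 5 of 14 were lower in PAE than in PF. Before the site they were then 11, 10 and 12 of 19. Of all regions tested then, 53.7% and 49.4% were lower than CON in PAE and PF, and 54.3% were lower in PAE than in PF. The difference between the sides was not tested, and no trait of either side is read from these counts.

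In number of peaks, CON animals had a mean of 19.7 ± 5.03 of the 44 regions (14 to 28, median 17), PF animals 15.7 ± 2.26 (13 to 19) and PAE animals 15.4 ± 3.06 (12 to 23). The groups overlapped, and the 4 highest CON counts were those of the libraries of high overall height. More CON than PAE animals had the peak at 29 regions, fewer at 7 and as many at 8, and against PF these counts were 22, 9 and 13. The number of regions without any call was 4 in CON, 7 in PF and 9 in PAE. The same counts were not made over all tested regions, so they are not read as a trait of the locus. CON also had the most autosomal peaks, a mean of 151580 against 144000 in PF and 135830 in PAE. Per 100000 autosomal peaks, the called regions of an animal numbered 12.9 ± 1.46 in CON, 10.97 ± 1.44 in PF and 11.4 ± 1.62 in PAE. Without the 6 libraries they numbered 11.9 ± 0.716, 11.04 ± 1.504 and 11.4 ± 1.70. Without them the plain counts were 16.0 ± 1.26 (n = 6), 15.3 ± 2.06 (n = 9) and 14.6 ± 1.59 (n = 9).

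Called peaks at the locus had a mean height of 1.08 ± 0.198 in CON, 0.970 ± 0.150 in PF and 0.959 ± 0.129 in PAE. Over the regions of the genome called in all 30 animals, the median height was 1.42 ± 0.197, 1.33 ± 0.144 and 1.29 ± 0.147, in the same order of groups. The part of this overall height in the lower values of PAE and PF at the locus was not tested beyond the removal of the 6 libraries and the scalings above.

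**Figure D5:**
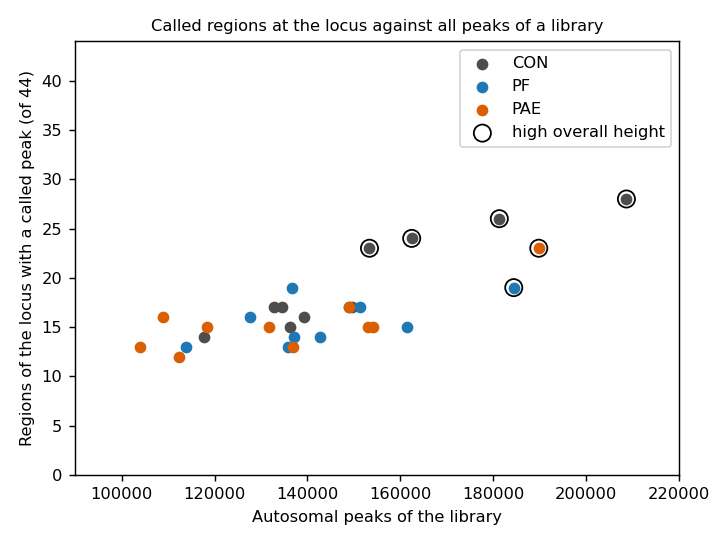
Number of the 44 regions with a called peak (vertical axis) against the number of autosomal peaks of the library (horizontal axis, which does not start at 0), 1 point for each of the 30 animals, coloured by group, with rings around the 6 libraries of high overall height. The ringed libraries hold 19 to 28 regions and the others 12 to 19.

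The sequencing chip and the labelled sex were tested at the same regions, independently of how the site was chosen. The chip had an unadjusted p below 0.05 at 9 of 44 regions (20.5%, against 12.2% of all tested regions), and 0 passed the FDR at the locus (smallest adjusted p = 0.118). The 3 regions called only in the libraries of high overall height with a low p against CON included 2 of these 9, at -59.3 kb and 39.2 kb, and the region at 66.1 kb was another. The labelled sexes differed at 2 of 44 regions (4.55%, against 4.31%), those at -71.2 kb and 60.8 kb, where animals labelled male were lower by a log2 difference of -0.30 and -0.39 (smallest adjusted p = 0.840). The group by labelled sex interaction had an unadjusted p below 0.05 at 0 of 44 regions in PAE versus CON (4.86% of all regions), in PF versus CON (4.81%) and in PAE versus PF (2.98%), with a lowest p of 0.0535. As 18 libraries went against their labelled sex, these values describe the labels and not the sexes.

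The regions whose heights followed the site most closely over the 30 animals, among the 20 others called in at least 10, were those at -89.0 kb (chr18:60616994-60617923, Spearman's rho 0.58), 42.1 kb (0.45) and 49.3 kb (chr18:60755272-60756170, 0.44). The first had a peak in 5 animals of CON, 4 of PF and 2 of PAE, with all 6 libraries of high overall height among the 11. The last had one in 9 animals of CON, 8 of PF and 8 of PAE. Over the 20 regions the median rho was 0.21, 14 were positive and the lowest was -0.10. The animals share library depth and overall height in all of these values, so they are a description only.

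Of a list of 23 genes of the NEDD4 family, its regulators and its targets, 2 besides Nedd4l had a region that the study's tables place in Rn6. At Kcnq1, a potassium channel gene of the KCNQ family, the intronic region at chr1:216598675-216599003 was called in 2 CON animals and the one at chr1:216603938-216604530 in 4 CON and 1 PF animal, and neither was called in PAE. At Gria1, which encodes an AMPA-type glutamate receptor subunit, chr10:42672894-42673376 was called in 1 PF and 2 PAE animals and in no CON animal. These regions come from the study's own lists and are described without a test. In the GRCr8 reference annotation, whose coordinates are not those of Rn6, Atp8b1 and Alpk2 are the protein-coding genes on either side of Nedd4l. No gene was assigned here to the regions other than the site.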

How the data were processed

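DNAm was measured by meDIP-seq in the PFC of 30 rats, grouped by prenatal treatment, labelled sex, dam and sequencing chip from the labels. Reads had been aligned to Rn6 by the authors using BWA and filtered using samtools, and MACS2 (2.1.4 per the file headers) had found the peaks of every animal on its own, with no input control and a q-value limit of 0.05. The pileup at a peak's summit is the deposited signal and is not scaled for depth. Peaks were also filtered on the deposited −log10 q-value for a stricter threshold. Peaks overlapping by at least 1 bp were merged, and each animal's highest pileup in a region was scaled to 1000000 filtered fragments. Log2 heights of the 432103 autosomal regions called in at least 2 libraries entered a fit by limma 3.58.1 under R 4.3.3 (trended prior variance; group, labelled sex and chip), with Benjamini-Hochberg adjustment over all of them. Tables and figures were made with Python 3.11.15, numpy 2.4.6, pandas 2.3.3, scipy 1.17.1 and matplotlib 3.10.9. The fit was tested on simulated data. The window, its regions and the gene list were chosen with earlier results of these data known. Regions named are the site, any other in the study's tables, those called in all 30 animals, those with an unadjusted p below 0.05 (at most 10), the nearest on each side and the 3 most like the site. The feature of the site is that of the study's table, since the reference annotation is of GRCr8. The alternatives were other chip and sex terms, litter as a random effect, other floors, scalings, peak thresholds and region filters, Fisher's exact test, subsets of libraries and each animal left out. The diets were given to dams, so the dam and not the pup was the treated unit. The main fit has no term for the dam and counts littermates as independent animals. Its p-values thus measure the spread between animals, of which pairs share a litter, and not the spread between dams.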

Additional observations from a re-analysis of the deposited data

Results flagged for a closer look

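In 6 of 37 sets of values tested (called heights of a named region in a group, or counts and mean heights per library), 1 animal stood farther from the others than Dixon's limit allows, where chance marks about 1 in 20 sets. At the region -89.0 kb from the site (start 60616994), the tallest of 4 PF peaks was 1.19 against 0.655 for the next. At 22.0 kb (start 60728041), the tallest CON peak was 2.51 against 1.22. At 60.8 kb (start 60766885) the tallest PAE peak was 2.38 against 1.48, and at 66.1 kb (start 60772173) it was 1.97 against 1.09. In the number of the 44 regions called, 1 PAE animal had 23 against 17 for the next. In the mean height of its called regions, 1 PF animal had 1.31 against 1.04. All 6 values came from libraries of high overall height.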

How the results depend on the processing

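The count of regions in the whole table past the FDR for PAE versus CON, 1 in the reported fit, was 0 without the chip term, with animals without a peak set to 0 and a pseudocount of 0.1, under median ratio scaling, quantile normalization, peaks covering 50% of a region and regions called in all 30 animals, in the libraries that go with their labelled sex and without the libraries of high overall height. With the chip effect removed before the fit it was 2, and 15 for PF versus CON, but that fit does not count the chip terms and its p-values are too small. The number of regions of the locus with an unadjusted p below 0.05 also moved. With the chip effect removed first it was 12 for PF versus CON and 6 for PAE versus PF. The pseudocount gave 4 regions for PAE against CON and 5 for PAE against PF, and with quantile normalization 4 for PAE versus CON. With peaks covering 50% of a region it was 4 of 41 for PAE and 4 for PF against CON. Among the 3 regions called in all 30 animals it was 0 in each contrast. In the libraries that go with their labelled sex it was 0, 3 and 1 of 31 for PAE versus CON, PF versus CON and PAE versus PF. Without the libraries of high overall height, an alternative added after seeing the data, it was 2 and 3 of 34 for PAE and PF against CON. Fisher's exact test of called peaks, without chip or sex, gave 0, 2 and 1. Leaving out each animal in turn gave 2 to 9, 3 to 10 and 1 to 4 regions, and 0 to 1 region past the FDR for PAE versus CON. At the site, PAE versus CON was -1.996 and PAE versus PF -1.65 with the pseudocount, where the median of all regions moved to -0.13 for PAE versus CON, and PAE versus CON was -1.29 to -0.90 with each animal left out. PF versus CON at the site was then -0.72 to -0.33 and PAE versus PF -0.78 to -0.41. The site is not called in all 30 animals and has no value there. The 16 differences below an unadjusted p of 0.05 outside the site, at 10 regions, kept their sign under each alternative that gave them a value. For the regions starting at 60631371, 60653401 and 60709968, called in a single group, the rule itself set that sign. The cause of these changes was not tested. Coverage under the threshold of calling cannot be seen in these files, and site heights rest on 10 to 24 fragments.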
